A study of Mus musculus with 4 samples.

Results

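Thymic cells of BALB/c and B6 mice were sorted as invariant natural killer T (iNKT) cells, and a minority of the barcodes carried the transcripts of double-positive (DP) thymocytes instead. The members, called DP-like cells, were chosen by a gate on raw UMI counts (distinct tagged RNA molecules). A cell was kept with at least 500 genes, at least 1000 UMIs and at most 10% mitochondrial UMIs. It was DP-like with at least 2 UMIs of the coreceptor genes Cd8a and Cd8b1 together and at least 1 of the immaturity genes Rag1, Dntt, Arpp21 and Aqp11. It also had at most 1 UMI of Nkg7, Klrd1, Il2rb and Xcl1 (NK and effector genes), and under 4 of the cell cycle genes Mki67, Top2a, Birc5, Cdk1, Rrm2 and Pclaf. The gate took 779 of 15767 kept cells, 141 and 181 in the BALB/c libraries and 167 and 290 in the B6 libraries. The other 14988 kept cells are called other cells. All libraries were made with a droplet-based 10x Genomics 5' kit from live thymus cells sorted for CD3 and for binding of CD1d loaded with the lipid PBS57, and strain is the one labelled factor, with 2 libraries of BALB/c and 2 of B6. The labels give no allele, treatment, age, sex or pooling, and do not tell whether each library is a mouse of its own, so p-values measure only the spread between these libraries. The 16 genes of the gate chose the cells, and their levels in the DP-like cells are no finding. Where a strain has a pair of values, its library 1 comes before its library 2.

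DP thymocytes carry both CD4 and CD8 and are the stage at which the TCR alpha locus is rearranged by the Rag1 and Rag2 recombinase, with Dntt (terminal transferase) adding untemplated bases at the joints. The survival protein encoded by Bcl2l1 keeps them alive long enough for repeated rearrangement. In the mouse, DP thymocytes also present lipids on CD1d to each other, and the rare cells whose alpha chain joins Trav11 to Traj18 are selected there as iNKT cells and then switch on Zbtb16 (PLZF). Mature iNKT cells lack CD8, and their beta chains are drawn mostly from the Trbv13, Trbv29 and Trbv1 families.

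Deposited barcodes numbered 2038 and 2056 (BALB/c) and 2494 and 9732 (B6), with total counts per library between 20406245 and 82904358 UMIs. The matrix headers name Cell Ranger 7.1.0 for B6 2 and 6.0.0 for the other libraries, so a value that stands apart in B6 2 cannot be told apart from the software version, and values without B6 2 are given where they matter. DP-like cells held a median of 2244 and 2856 (BALB/c) and 2539 and 2757 UMIs (B6), against 11580 and 10230 (BALB/c) and 7309 and 7175.5 UMIs (B6) in other cells. They were thus shallower than the other cells in every library, and shares of cells with a UMI are given below also after each cell was thinned to 1000 UMIs. Their summed counts were 339187 and 548216 (BALB/c) and 442154 and 901723 UMIs (B6). Median mitochondrial percents were 2.33 and 2.09 (BALB/c) and 2.17 and 1.74 (B6) in DP-like cells, against 2.17 and 2.11 (BALB/c) and 1.84 and 1.76 (B6) in other cells. Pairs of libraries shared 4 to 33 barcode strings among all deposited barcodes and 0 among DP-like cells. A doublet ranking marked 1 and 1 (BALB/c) and 0 and 3 (B6) of the DP-like cells. These were 0.709% and 0.552% (BALB/c) and 0% and 1.03% (B6) of them. Of other cells, 1.77% and 1.87% (BALB/c) and 2.26% and 8.14% (B6) were marked. The number marked was set by the number of barcodes in a library, so these shares do not measure how many doublets there were.

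**Figure D1:**
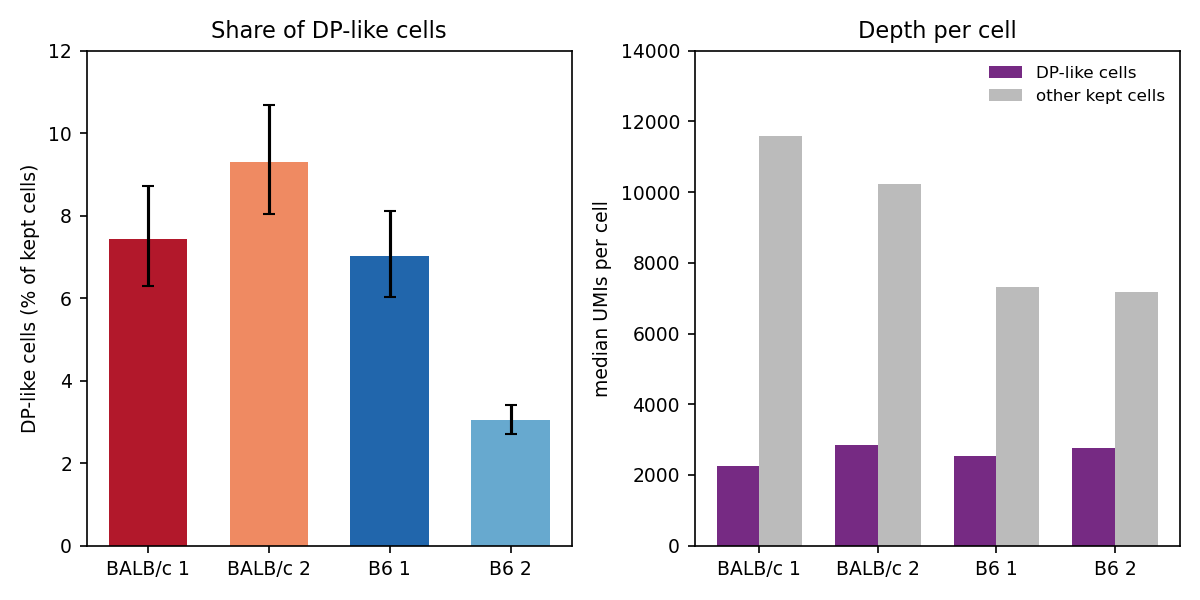
Left, DP-like cells as a percent of kept cells in each library, with exact 95% binomial intervals as bars; right, median UMIs per cell in DP-like and in other cells of the same libraries. DP-like cells were 7.44% and 9.30% of BALB/c libraries and 7.02% and 3.04% of B6 libraries, and their median depth was below that of the other cells in all 4.

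DP-like cells made up 7.44% (95% interval 6.30 to 8.71) of kept cells in BALB/c 1 and 9.30% (8.04 to 10.7) in BALB/c 2, against 7.02% (6.03 to 8.12) in B6 1 and 3.04% (2.70 to 3.40) in B6 2. BALB/c 1 and B6 1 lay close together, and B6 2 stood apart from B6 1 by more than counting error. The mean share was 8.37 ± 1.32% in BALB/c against 5.03 ± 2.82% in B6 (SD, n = 2 each), a difference of 3.34 points (exact two-sided permutation p = 0.33, the smallest that 2 libraries against 2 allow; 0.667 adjusted over 4 comparisons of shares). Without B6 2 the difference was 1.34 points, and with every cell thinned to 2000 UMIs before gating it was 1.85 points. In that thinned setting BALB/c 1, at 4.18%, lay below B6 1, at 5.58%, so the strains then overlapped. The part of sorting and cell loading in this was not tested.

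At the edges of the gate, 34 DP-like cells had exactly 2 UMIs of the Cd8 genes and 39 cells failed only with 1. Exactly 1 immaturity UMI was found in 64 DP-like cells, and 98 cells failed only with 0. The NK and effector limit was met with 1 UMI by 78 DP-like cells, 54 of them in B6 2, and 16 cells failed only with 2. The cell cycle limit was met with 3 UMIs by 1 cell and missed only with 4 by 2 cells. All 4 immaturity genes were detected together in 14.2% and 13.3% of BALB/c DP-like cells, against 49.7% and 55.5% of B6 DP-like cells. That split followed Aqp11, an aquaporin gene of the gate itself, which had a UMI in 23.4% and 22.7% of BALB/c DP-like cells and in 74.3% and 73.8% of B6 DP-like cells. In other cells Aqp11 had a UMI in 1.54% and 2.55% in BALB/c and in 8.46% and 7.43% in B6.

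Genes outside the gate bore out the DP label in each library. After thinning to 1000 UMIs, Cd4 had a UMI in 56.7% and 53.6% (BALB/c) and 49.1% and 52.1% (B6) of DP-like cells, against 8.89% and 8.27% (BALB/c) and 4.43% and 5.63% (B6) of other cells. Without thinning the Cd4 shares were 76.6% and 82.9% (BALB/c) and 78.4% and 84.8% (B6) in DP-like cells and 47.5% and 44.8% (BALB/c) and 21.2% and 28.8% (B6) in other cells. Every DP-like value of Cd4 lay above every value of the other cells, thinned or not. The thinned share for Rag2, the partner of Rag1 in the recombinase, was 21.3% and 19.9% (BALB/c) and 22.2% and 24.1% (B6) in DP-like cells and at most 0.396% in other cells. Ccr9, the chemokine receptor that holds immature thymocytes in the thymus, stood at 73.0% and 65.7% (BALB/c) and 68.3% and 60.7% (B6) in DP-like cells, against 4.73% and 3.96% (BALB/c) and 3.48% and 2.52% (B6) in other cells. Cd24a, a surface marker of immature thymocytes, was found in 20.6% and 24.3% (BALB/c) and 22.2% and 25.5% (B6) of DP-like cells, against 0.798% and 2.49% (BALB/c) and 0.814% and 0.475% (B6) of other cells. In every library the thinned shares of these 4 genes were several times higher in DP-like than in other cells.

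Zbtb16 and Cd44, markers of iNKT cells, ran the other way. Zbtb16 had a UMI in 2.84% and 1.66% (BALB/c) and 0% and 4.83% (B6) of DP-like cells, against 78.5% and 65.9% (BALB/c) and 44.1% and 63.6% (B6) of other cells; after thinning the shares were 1.42% and 0.552% (BALB/c) and 0% and 2.41% (B6) against 27.4% and 21.9% (BALB/c) and 11.9% and 23.2% (B6). The 0 of 167 cells in B6 1 allows a share of up to 1.80%. Cd44, an activation and memory marker, had a UMI in 7.80% and 4.97% (BALB/c) and 1.80% and 10.3% (B6) of DP-like cells and in 37.0% and 41.5% (BALB/c) and 51.4% and 66.4% (B6) of other cells; thinned, the gap was narrow in BALB/c (4.26% and 2.76% against 6.15% and 6.63%) and wider in B6 (0.599% and 4.14% against 12.3% and 17.2%). Klrb1c, whose NK1.1 epitope BALB/c lacks, was found in 0.709% and 0.552% of BALB/c and 3.59% and 4.14% of B6 DP-like cells, against 2.34% and 2.94% of BALB/c and 73.7% and 72.2% of B6 other cells. After thinning Klrb1c stood at 0% and 0% of BALB/c and 2.40% and 0.345% of B6 DP-like cells, against 0.171% and 0.283% of BALB/c and 30.6% and 30.4% of B6 other cells, so the gap was seen in B6 and could not be read in BALB/c. Egr2, induced by TCR signals and needed by the first iNKT precursors, was found in 0% and 3.87% (BALB/c) and 2.40% and 3.79% (B6) of DP-like cells and in 16.7% and 16.0% (BALB/c) and 8.32% and 7.91% (B6) of other cells. After thinning the sets overlapped for Egr2, with 0% and 1.66% (BALB/c) and 0.599% and 2.76% (B6) of DP-like cells and 3.48% and 2.60% (BALB/c) and 2.04% and 1.67% (B6) of other cells. The DP-like cells carried little Zbtb16, although single cells with Zbtb16 were among them in 3 of 4 libraries.

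**Figure D2:**
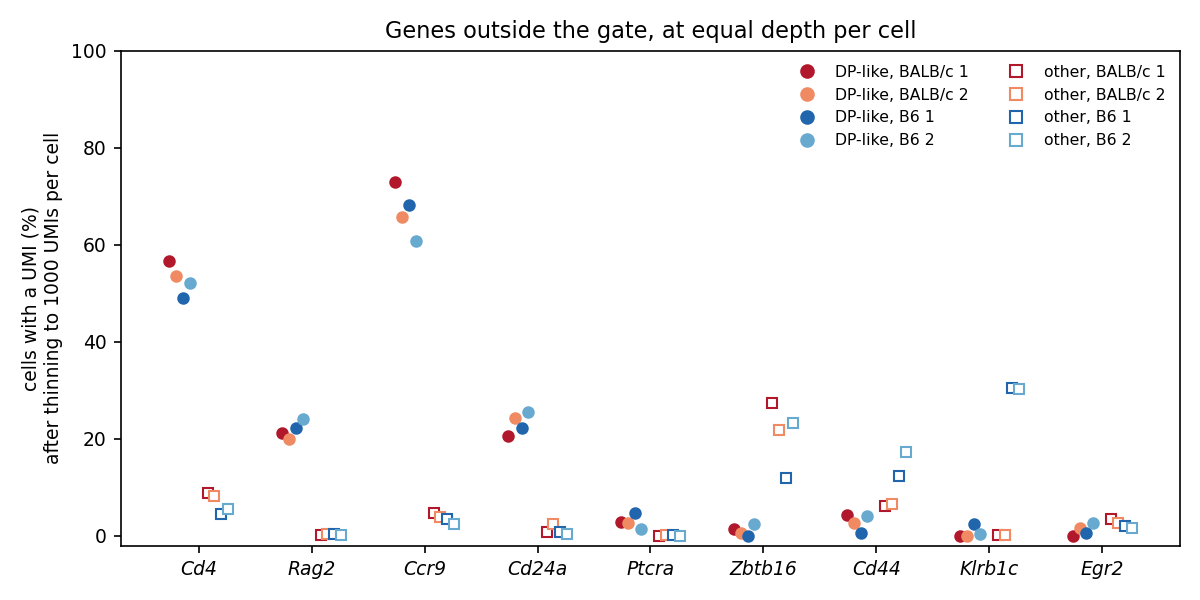
Percent of cells with at least 1 UMI of each gene after thinning every cell to 1000 UMIs, for DP-like cells (filled circles) and other cells (open squares) of the 4 libraries. Cd4, Rag2, Ccr9 and Cd24a lie higher in DP-like cells of every library, and Zbtb16 and Cd44 lie lower, and Egr2 overlaps between the sets.

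Markers of other lineages were at 0 or low for most genes, with Ighm, Cd79b, Cst3 and 1 cell as exceptions. The summed level of 6 erythroid genes was at most 2.22 CPM (UMIs of a gene scaled to an equal total per library), and that of 7 thymic epithelial genes at most 12.2 CPM. Of 8 B cell genes, the defining Ms4a1 and Pax5 were at 0 in all 4 libraries, while the list summed to 758 and 631 (BALB/c) and 617 and 460 CPM (B6) in DP-like cells, against 128 and 475 (BALB/c) and 511 and 145 CPM (B6) in other cells. Most of that was Ighm, the IgM heavy chain gene, with 433 and 591 (BALB/c) and 559 and 400 CPM (B6) in DP-like cells. Cd79b, a subunit of the B cell receptor, had 32.4 and 29.2 (BALB/c) and 56.5 and 54.3 CPM (B6) in DP-like cells, against 4.92 and 9.39 (BALB/c) and 8.69 and 1.22 CPM (B6) in other cells, and was higher in all 4 libraries. The part of B cell RNA in these values was not tested. The 8 myeloid genes summed to 398 and 230 (BALB/c) and 190 and 163 CPM (B6) in DP-like cells, against 184 and 265 (BALB/c) and 229 and 138 CPM (B6) in other cells, and Csf1r, Fcgr3, Itgax and Spi1 were at 0 in DP-like cells of all 4. Most of the myeloid sum was Cst3, a secreted protease inhibitor gene, with 254 and 219 (BALB/c) and 188 and 163 CPM (B6) in DP-like cells, against 173 and 244 (BALB/c) and 201 and 124 CPM (B6) in other cells. The 6 γδ T cell genes summed to 64.9 and 42.0 (BALB/c) and 11.3 and 43.3 CPM (B6), against 653 and 481 (BALB/c) and 303 and 294 CPM (B6) in other cells. The cell apart was a member of BALB/c 1 with 8534 UMIs, which held 98 UMIs of Cd74, 47 of Tyrobp, 33 of Ly6c2, 28 of Irf8 and 14 of Siglech. It had 18 UMIs of Cd8b1 and 1 of Dntt but 0 of Rag1, Cd8a and Cd3e, so its leading genes go against the DP label. It held 98 of 99 Cd74 and 47 of 47 Tyrobp UMIs of the BALB/c 1 DP-like cells. The B cell and myeloid sums of BALB/c 1 above include these UMIs and are raised by them. In the comparison of strain changes between the sets, values that rest on this cell are given with and without it.

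Trav11 of the iNKT receptor was rare in DP-like cells, and the Traj18 values there rested on few Traj UMIs. Trav11 (chr14:53519303-53519859, GRCm38) had a UMI in 0 and 0 (BALB/c) and 0 and 1 (B6) DP-like cells, against 276 and 294 (BALB/c) and 366 and 710 (B6) other cells, which are 15.7% and 16.6% (BALB/c) and 16.6% and 7.67% (B6) of them. The zeros allow shares of up to 2.13% and 1.66% in BALB/c and 1.80% in B6 1. With both sets thinned to 1000 UMIs, Trav11 was found in 0% and 0% (BALB/c) and 0% and 0.345% (B6) of DP-like cells, against 1.88% and 2.10% (BALB/c) and 3.12% and 1.09% (B6) of other cells. The value of the other cells lay under the limit that a count of 0 allows in BALB/c 1, so no difference was detectable there at this depth. Among all UMIs of Trav segments, a measure less tied to depth, DP-like cells held Trav11 in 0 of 481 and 0 of 666 (BALB/c) and in 0 of 468 and 0.115% of 873 (B6). Other cells held it in 9.52% of 4139 and 9.65% of 4352 (BALB/c) and in 16.1% of 3270 and 7.55% of 10942 (B6). Traj18 was found in 0 and 2 (BALB/c) and 0 and 0 (B6) DP-like cells and in 601 and 631 (BALB/c) and 810 and 949 (B6) other cells. Of Traj UMIs in DP-like cells, it made up 0 of 0 and 2 of 10 (BALB/c) and 0 of 6 and 0 of 34 (B6). In other cells it made up 97.2% of 822 and 96.9% of 918 (BALB/c) and 97.6% of 1178 and 49.5% of 2063 (B6). With so few Traj UMIs, the counts of DP-like cells cannot show how rare Traj18 was. The share of DP-like cells with a Trav11 UMI was 0% in BALB/c against 0.172 ± 0.244% in B6 (SD, n = 2 each; exact two-sided permutation p = 1).

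Trav segments as such were common in DP-like cells. A Trav UMI was present in 80.1% and 76.8% (BALB/c) and 67.1% and 70.7% (B6) of DP-like cells, against 69.9% and 66.9% (BALB/c) and 52.4% and 46.3% (B6) of the deeper other cells. Traj UMIs were scarcer, in 0 and 8 (BALB/c) and 5 and 24 (B6) DP-like cells. Between 53 and 69 Trav segments were seen per library in DP-like cells, against 75 to 85 in the far more numerous other cells. The 5 most abundant held 33.7% and 38.7% (BALB/c) and 21.4% and 24.1% (B6) of Trav UMIs in DP-like cells, against 31.8% and 37.1% (BALB/c) and 30.6% and 25.2% (B6) in other cells. These shares were slightly higher in DP-like than in other cells in both BALB/c libraries and lower in both B6 libraries. The most abundant segment was Trav13-1 in BALB/c 1 (12.3% of Trav UMIs) and B6 1 (4.70%), Trav21-dv12 in BALB/c 2 (10.2%) and Trav14-2 in B6 2 (5.16%). Near-identical Trav copies share reads, so single segments are uncertain.

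Beta chains could be called (at least 2 UMIs, no tie) in 113 and 164 (BALB/c) and 144 and 256 (B6) DP-like cells. Trbv13 was the segment family of 31.9% and 25.6% (BALB/c) and 14.6% and 23.4% (B6) of these cells, against 66.8% and 62.8% (BALB/c) and 67.1% and 69.6% (B6) of other cells. Trbv13, Trbv29 and Trbv1 together made up 46.9% and 35.4% (BALB/c) and 27.8% and 36.3% (B6) of DP-like calls and 90.3% and 89.8% (BALB/c) and 93.0% and 95.1% (B6) of the calls in other cells. No library overlapped between the sets in either measure. Trbv12 went the opposite way, with 6.20% and 11.0% (BALB/c) and 15.3% and 12.5% (B6) of DP-like calls against 0.664% and 0.479% (BALB/c) and 0.794% and 0.453% (B6) in other cells. The Trbv13 share of DP-like cells averaged 28.7 ± 4.42% in BALB/c against 19.0 ± 6.26% in B6 (SD, n = 2 each), a difference of 9.72 points that ran from 5.30 to 14.2 when single libraries were left out (exact two-sided permutation p = 0.33, 0.667 adjusted over the 4 comparisons).

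**Figure D3:**
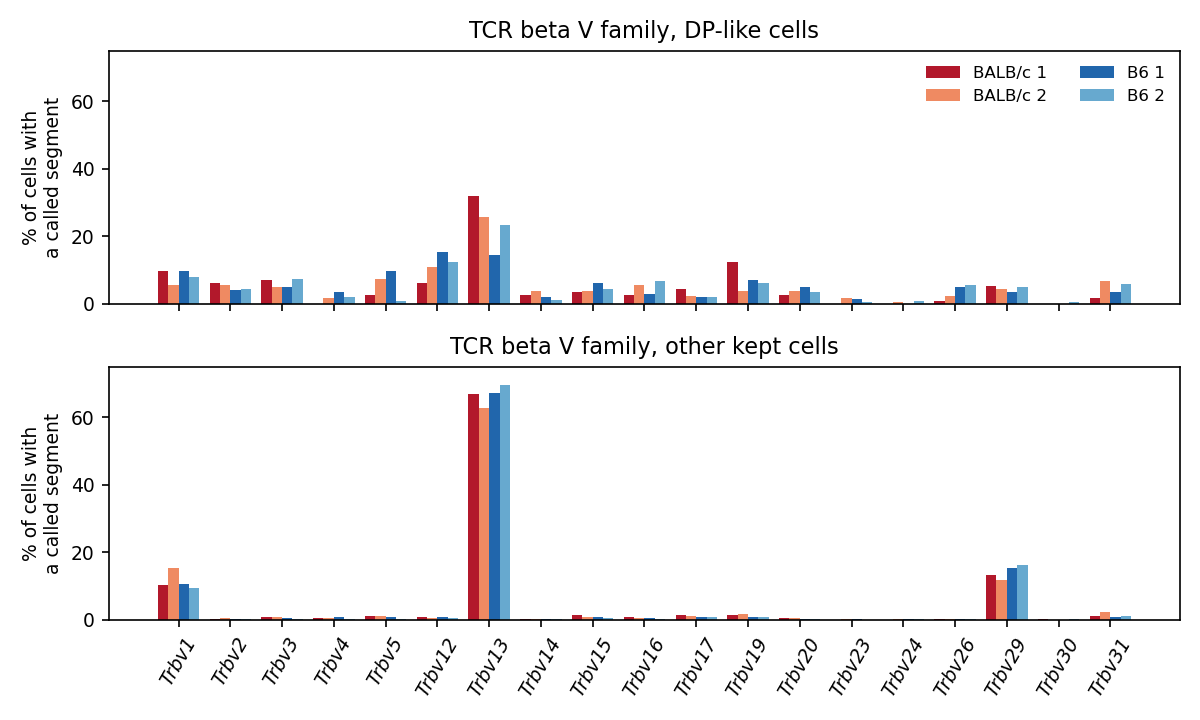
Percent of cells with a callable segment that used each TCR beta V family, DP-like cells above and other cells below, with 1 bar per library. DP-like calls are spread over 15 to 19 families, and calls in other cells are concentrated in Trbv13, Trbv29 and Trbv1.

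Expression of DP-like cells was next set against that of the other cells of the same library. The gate chose the cells by this contrast, so the values are a description with no test; log2 ratios are of unscaled CPM plus 1, averaged over 4 libraries. Of 7421 genes with a mean of at least 20 CPM in either set, 1159 (15.6%) were at least 2-fold higher in DP-like cells in all 4 libraries and 530 (7.14%) at least 2-fold lower, with a median log2 ratio of 0.48. Of 20 DP thymocyte genes outside the gate, 18 were higher in this sense, with a median of 3.80. Rag2 had 265 and 246 (BALB/c) and 283 and 265 CPM (B6) in DP-like cells against 1.11 and 3.43 (BALB/c) and 2.88 and 1.64 CPM (B6) in other cells, a log2 ratio of 6.41. Themis, needed for positive selection, stood at 5.54, Endou at 6.22, Glcci1 at 4.90, Ets2 at 4.60, Bcl6 at 4.06, Ptcra, the pre-TCR alpha chain, at 3.72 and Satb1, a chromatin organiser, at 2.75. Tox (1.17) and Lef1 (1.14) did not reach the fold in every library.

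The recombination machinery beyond Rag2 was mixed. Of 12 genes of V(D)J recombination and end joining above 20 CPM, 7 were higher and 1 lower, with a median of 1.41. Lig4, the ligase of end joining, stood at 4.53, Dclre1c (Artemis, which opens hairpin ends) at 2.68 and Top2b at 1.71. Prkdc at 0.51 and Atm at -0.78 did not reach the fold, and Hmgb2 was lower at -1.98. Of 6 E and Id protein and Notch target genes, the E proteins Tcf12 (3.35), Tcf4 (2.87) and Tcf3 (1.47) were higher and their antagonist Id2 (-3.96) was lower.

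TCR signalling genes were partly higher, and genes induced by TCR signals were not as a group. Of 21 pre-TCR and TCR signalling genes 9 were higher and 0 lower, with a median of 0.97. The kinase Lck was at 1.91, the adaptor Lat at 1.89, Cd3e at 0.56 and Zap70 at -0.31. Of 17 TCR-induced genes, Cd27 was higher (2.09), and Il7r (-4.86), Cd53 (-2.63) and Orai1 (-1.12) were lower, with a median of -0.06 against 0.48 for all genes. Of 13 coreceptor and lineage regulators above 20 CPM, 6 were higher. Zbtb7b, the CD4-lineage factor ThPOK, at -4.84 and Runx3, the CD8-lineage factor, at -3.55 were lower.

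Genes of lipid presentation and of SLAM signalling, which the CD1d-restricted lineage depends on, were uneven. Cd1d1 was higher at 2.87, the lipid-loading saposin gene Psap at 1.69 and the lysosomal protease Ctsl at 5.90, while B2m, the light chain shared by CD1d and class I molecules, was lower at -2.32 (388 CPM in DP-like cells and 1922 CPM in other cells on average). Slamf1 (3.67) and the SLAM adaptor gene Sh2d1a (1.92) were higher, Slamf7 (-4.85) was lower, and Slamf6 averaged 0.38 with libraries from -0.65 to 1.65.

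Homing and effector genes separated the sets further, and survival genes did not as a list. Bcl2l1 (3.43), Fas (2.75), Tsc22d3 (2.11), Bcl2l11 (1.49) and Mcl1 (1.44) were the 5 of 17 survival and death genes that were higher, and 0 of 17 were lower in all 4 libraries. The median of that list was 0.48, against 0.48 for all genes. Among 12 chemokine receptor and egress genes, 4 were higher and 5 lower, with a median of -1.75. Ccr9 (4.92), Cxcr4 (2.06) and Itga4 (1.94) were among those higher. Itgae (-5.88), Cxcr6 (-5.00), Cxcr3 (-4.87), Klf2 (-3.74) and Ccr2 (-3.50) were lower. The lists for iNKT cells had 0 of 10 shared genes, 0 of 10 iNKT1 genes, 1 of 9 iNKT2 genes and 0 of 4 iNKT17 genes higher, and in the same order 7, 7, 3 and 2 lower. Of 17 interferon response genes 0 were higher and 10 lower, with a median of -1.98. Free RNA and the depth gap are shared by all these ratios, and their part was not tested.

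Outside the lists, the largest ratio was that of Chrna9, a nicotinic acetylcholine receptor subunit, with 354 and 383 (BALB/c) and 287 and 323 CPM (B6) in DP-like cells, against 0.976 and 2.08 (BALB/c) and 1.46 and 2.14 CPM (B6) in other cells (log2 ratio 7.00). Slc16a5, a monocarboxylate transporter, stood at 6.47, F13a1, a coagulation factor subunit, at 6.29, P2rx1, an ATP-gated channel, at 5.64 and Slc7a11, a cystine transporter, at 5.42. At the low end, Nrgn (-7.23), the calcium-binding S100a4 (-6.64), the galectin Lgals3 (-5.77) and the chemokine receptor Ccr8 (-5.42) were outside the lists. The chemokine Ccl5 (-6.15) of the iNKT1 list and the cytokine Il4 (-5.70) of the iNKT2 list lay in the same range as these and Itgae. Nrgn had 0 and 0 (BALB/c) and 0 and 7.76 CPM (B6) in DP-like cells and 302 and 320 (BALB/c) and 202 and 225 CPM (B6) in other cells.

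The 110 cells that failed only the cell cycle limit, 21 and 34 of them from BALB/c and 24 and 31 from B6, resembled the DP-like cells in beta chains, with Trbv13 in 18.8% to 32.1% of calls per library. They differed in Trdc. Trdc, the TCR delta constant gene that is cut out when the alpha locus rearranges, had a UMI after thinning in 14.3% and 26.5% (BALB/c) and 4.17% and 12.9% (B6) of them, against 0% and 1.66% (BALB/c) and 0.599% and 1.03% (B6) of DP-like cells. Unthinned, Trdc was found in 38.1% and 67.6% (BALB/c) and 58.3% and 58.1% (B6) of the cycling cells and in 0.709% and 5.52% (BALB/c) and 1.80% and 3.10% (B6) of DP-like cells. The 98 cells that failed only for lack of an immaturity UMI, 21 and 38 of them from BALB/c and 14 and 25 from B6, had Ccr9 in 40.0% to 71.4% after thinning, but Cd4 in 23.8% and 15.8% (BALB/c) and 21.4% and 28.0% (B6), and Rag2 in 0% and 2.63% (BALB/c) and 0% and 0% (B6). Thinned Cd4 and Rag2 shares of that set lay below those of the DP-like cells in all 4 libraries. In that set the 8 B cell genes summed to 152 and 5386 CPM in BALB/c and to 14048 CPM in B6 1. The 8 myeloid genes summed to 152 and 4579 CPM in BALB/c and to 963.5 CPM in B6 1. The part of other lineages in the shares of that set was not tested. Of 83 cells that failed only for NK and effector UMIs, 69 came from B6 2. In B6 2 they combined Rag2 (a UMI in 40.6%) with Klrb1c (66.7%), Cd44 (55.1%) and Zbtb16 (44.9%), and the part of doublets in them was not tested.

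Strains were compared on UMI counts summed over the DP-like cells of each library, with edgeR's quasi-likelihood test over 6923 genes; CPM values from here on are scaled by edgeR's TMM factors. At a Benjamini-Hochberg adjusted p of at most 0.05, 99 genes were called (1.43%), 32 higher (0.462%) and 67 lower (0.968%) in BALB/c. Unadjusted, 713 genes had p of at most 0.05. In 2656 genes (38.4%) the values of the strains did not overlap. The count moved with single libraries, and 5 higher and 13 lower were called without BALB/c 1, 20 and 24 without BALB/c 2, 132 and 296 without B6 1, and 46 and 58 without B6 2, which leaves the libraries of one Cell Ranger version.

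Of the DP programme itself, 0 of 20 genes were called, a share that cannot be told from the 1.43% of all genes in a list of this length; 11 of the 20 had strains that did not overlap, against 38.4%, and their median log2 change was -0.15, against -0.01 over all genes. Rag2 had 267 and 266 CPM in BALB/c DP-like cells and 291 and 274 CPM in B6 DP-like cells, a log2 change of -0.08 (adjusted p = 0.946). Ccr9 had 1293 and 1216 CPM in BALB/c and 1455 and 977 CPM in B6, and Cd4 had 896 and 766 CPM in BALB/c and 671 and 735 CPM in B6 (log2 change 0.24, adjusted p = 0.819). Ccr9 overlapped between strains; Rag2 was slightly lower and Cd4 slightly higher in both BALB/c libraries, without a call. Ptcra had 20.8 and 25.6 CPM in BALB/c and 83.9 and 30.9 CPM in B6 (-1.16, adjusted p = 0.470), and Satb1 changed by -0.61 (0.500). The share of DP-like cells with a Cd4 UMI was 79.7 ± 4.44% in BALB/c against 81.6 ± 4.51% in B6 (SD, n = 2 each; exact permutation p = 0.667, adjusted 0.889). The sign turned at equal depth, with BALB/c higher by 3.85 points after thinning to 2000 UMIs and by 3.39 points after thinning to 1000 UMIs.

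Most other lists also gave no call, and against 1.43% over all genes such counts say nothing particular about lists this short. None was made among 11 tested genes of V(D)J recombination, 11 coreceptor and lineage regulators, 21 TCR signalling genes, 16 TCR-induced genes, 10 early iNKT genes, 8 SLAM genes, 6 chemokine receptor and egress genes, 10 interferon response genes, 6 E and Id protein genes or 13 glycolysis genes. Among 8 lipid presentation genes Ctsl was called higher, and among 17 survival genes Fkbp5 was called lower. Of 12 tested genes listed as known to be polymorphic between strains, 2 were called higher (Ctsl and Tpm3-rs7) and 1 lower (Trim12a), against 1.43% over all genes. That list was chosen with earlier results of these data known, so its count is no finding. Cd1d1 had 157 and 181 CPM in BALB/c and 128 and 108 CPM in B6, higher in both BALB/c libraries but not called (log2 change 0.54, adjusted p = 0.451). Of 16 heat shock and dissociation genes, 1 was called higher, the chaperone gene Hsph1, with a list median of 0.40. Hsph1 had 154 and 203 CPM in BALB/c and 60.6 and 76.7 CPM in B6 (1.36, adjusted p = 0.0213), and its adjusted p was 0.107 without BALB/c 1 and 0.283 without BALB/c 2. Dnaja1 (1.08) and Hsp90aa1 (1.11) did not pass, with adjusted p of 0.057 and 0.071. Of 8 mature single-positive genes the class I gene H2-K1 was called higher; it is named here because it was the one called.

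**Figure D4:**
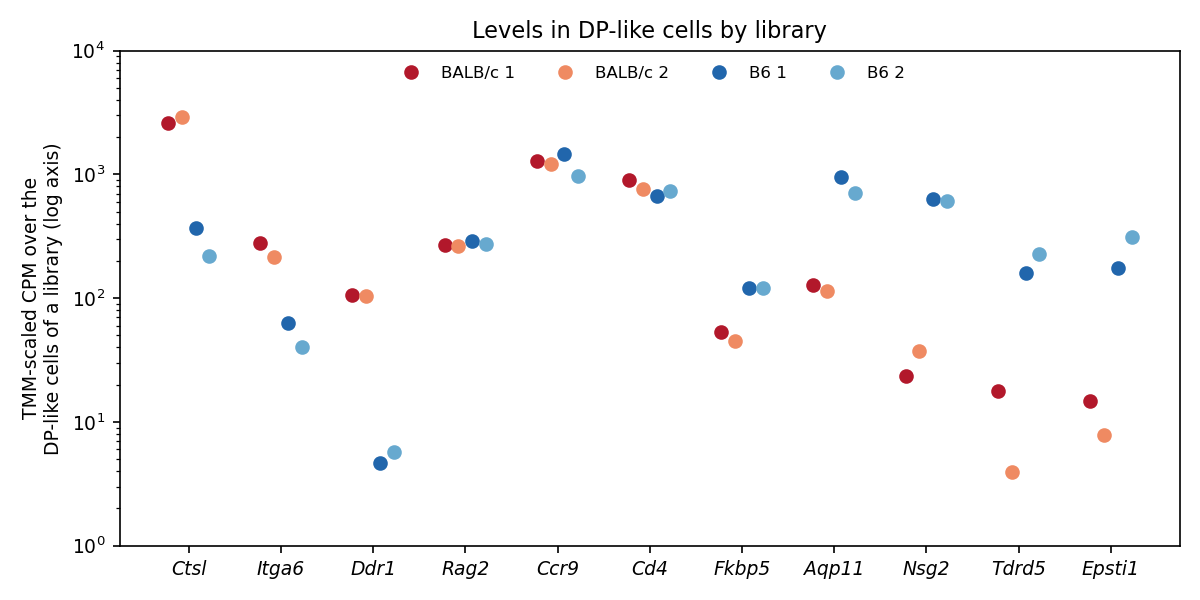
TMM-scaled CPM (log axis) of named genes in DP-like cells of the 4 libraries, with 1 point per library, with Aqp11 from the gate that leaves it out. Ctsl, Itga6 and Ddr1 are higher in both BALB/c libraries, Aqp11, Nsg2, Tdrd5, Epsti1 and Fkbp5 are lower, and Rag2, Ccr9 and Cd4 lie close together.

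Genes that the strain contrast names are shown here by the 250 bases before and 50 bases after the start of transcription, from the RefSeq table of GRCm38.p6, which is the C57BL/6J sequence. Rag2 (chr2:101624462-101624761, plus strand) is the recombinase gene outside the gate, without a call. Aqp11 (chr7:97738198-97738497, minus strand) and Nsg2 (chr11:32000169-32000468, plus strand, the first of 2 windows) were lower in BALB/c, and Ctsl (chr13:64370471-64370770, minus strand) was higher. Capitals mark matches on either strand to 4 letter motifs: the E-boxes CAGCTG and CAGGTG, RUNX TGTGGT and TCF and LEF CTTTGA.
Rag2 promoter: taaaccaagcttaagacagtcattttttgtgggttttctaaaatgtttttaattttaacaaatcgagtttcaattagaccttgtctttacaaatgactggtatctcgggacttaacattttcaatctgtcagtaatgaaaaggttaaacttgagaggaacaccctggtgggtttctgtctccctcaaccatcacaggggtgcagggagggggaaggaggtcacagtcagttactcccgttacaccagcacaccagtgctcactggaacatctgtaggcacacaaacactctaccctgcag
Aqp11 promoter: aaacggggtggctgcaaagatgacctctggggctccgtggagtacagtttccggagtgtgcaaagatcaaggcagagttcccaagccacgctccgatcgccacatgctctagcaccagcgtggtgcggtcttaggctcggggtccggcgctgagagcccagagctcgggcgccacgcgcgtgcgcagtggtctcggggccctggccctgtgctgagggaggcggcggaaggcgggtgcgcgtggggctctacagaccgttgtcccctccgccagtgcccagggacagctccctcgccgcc
Nsg2 promoter: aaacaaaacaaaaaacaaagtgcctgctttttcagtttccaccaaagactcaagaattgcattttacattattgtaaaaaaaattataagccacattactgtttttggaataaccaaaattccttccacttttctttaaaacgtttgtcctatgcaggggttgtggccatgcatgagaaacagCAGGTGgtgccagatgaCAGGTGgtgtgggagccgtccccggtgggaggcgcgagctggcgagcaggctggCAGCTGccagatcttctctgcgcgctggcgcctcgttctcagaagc
Ctsl promoter: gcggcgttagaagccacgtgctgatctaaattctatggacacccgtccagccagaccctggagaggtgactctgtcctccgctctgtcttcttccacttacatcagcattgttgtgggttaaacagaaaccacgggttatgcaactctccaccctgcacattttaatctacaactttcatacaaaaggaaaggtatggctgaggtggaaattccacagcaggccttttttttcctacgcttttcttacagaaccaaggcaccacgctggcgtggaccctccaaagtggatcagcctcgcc
Nsg2 held CAGGTG at -67 and -50 and CAGCTG at position 5, and Rag2, Aqp11 and Ctsl held none of the 4. No matches overlapped. Over 32851 windows of this length, 16.3% held CAGCTG, 20.2% CAGGTG, 16.8% TGTGGT and 16.0% CTTTGA, and a match is not evidence of binding.

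Ctsl encodes cathepsin L, a lysosomal protease that in mice trims the invariant chain in thymic epithelium and takes part in lipid presentation by CD1d. It had 2625 and 2888 CPM in BALB/c DP-like cells (chr13:64359337-64370890, minus strand), against 371 and 220 CPM in B6. Ctsl UMIs were found in 119 of 141 and 169 of 181 BALB/c cells and in 89 of 167 and 119 of 290 B6 cells. The means were 2756 ± 186 CPM in BALB/c against 295 ± 107 CPM in B6 (SD, n = 2 each), with a log2 change of 3.24 (SE 0.31, edgeR adjusted p = 0.000138). The strains did not overlap, which the choice of the largest changes required. In other cells Ctsl was far lower in both strains but shifted the same way, by 2.62, with 21.3 and 45.5 CPM in BALB/c against 5.69 and 5.20 CPM in B6. Other cells include those that narrowly failed the gate, and the part of such cells and of free RNA in this shift was not tested.

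Other genes higher in BALB/c included adhesion molecules. The 10 largest changes were picked among genes whose strains did not overlap, so the lack of overlap given for them is no support. Ddr1, a collagen-binding receptor kinase, had 107 and 104 CPM in BALB/c and 4.66 and 5.73 CPM in B6 (log2 change 4.24, SE 0.41, adjusted p = 0.000139). Itga6, the laminin receptor subunit alpha 6, had 282 and 217 CPM in BALB/c and 62.9 and 40.1 CPM in B6 (2.32, SE 0.28, adjusted p = 0.00109). H1fx, a linker histone gene, had 83.04 and 92.5 CPM in BALB/c and 4.66 and 2.29 CPM in B6 (4.73). Its 28 and 47 BALB/c UMIs came from only 8 of 141 and 16 of 181 cells, and 2 and 1 B6 cells held a UMI. Tsc22d1, a transcription regulator, had 160 and 134 CPM in BALB/c and 42.0 and 41.2 CPM in B6 (1.81). Each of these 4 had all BALB/c values above all B6 values, and without BALB/c 1 Itga6 and Tsc22d1 had adjusted p of 0.0548 and 0.107. Ugt8a, a galactosyltransferase of ceramide, had 50.4 and 39.4 CPM in BALB/c and 0 UMIs in B6, at least 18.7-fold higher when the B6 sum is set to a floor of 3 counts. Tpm3-rs7 (4.03), Phyh (2.51), Neu3 (2.40) and Rnaset2a (2.17) completed the 10 largest, and Tpm3-rs7 is a copy of Tpm3 whose reads are uncertain. Neu3 was not called without BALB/c 1, nor were Ugt8a, Tpm3-rs7, Phyh and Rnaset2a without BALB/c 1 or without BALB/c 2 (adjusted p 0.130 to 0.627), and Phyh also missed without B6 2.

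Among the named lower genes Nsg2, a neuronal vesicle protein gene (chr11:32000463-32059202, plus strand), had the lowest p. It had 23.7 and 37.4 CPM in BALB/c and 632 and 615 CPM in B6, with UMIs in 8 and 12 BALB/c cells and in 115 and 216 B6 cells. Means were 30.6 ± 9.67 CPM in BALB/c against 623 ± 11.7 CPM in B6 (SD, n = 2 each; log2 change -4.29, SE 0.28, adjusted p = 1.18e-05). The lack of overlap between strains was required by the choice of these genes. Epsti1, an interferon-inducible gene, had 14.8 and 7.87 CPM in BALB/c and 175 and 310 CPM in B6 (-4.50, SE 0.43, adjusted p = 0.000138). Tdrd5, known from the germline, had 17.8 and 3.94 CPM in BALB/c and 161 and 227 CPM in B6 (-4.32, adjusted p = 0.000284). Each of these 3 was called whichever library was left out. Trim12a, of the TRIM5 cluster, had 0 UMIs in BALB/c and 112 and 127 CPM in B6, at least 35.0-fold lower, and the antisense transcript BB031773 had 0 UMIs in BALB/c and 55.9 and 48.1 CPM in B6, at least 14.5-fold lower. Reads of an antisense transcript and its partner may not be told apart here. Slc6a19 (-4.63) and the guanylate-binding protein gene Gbp6 (-4.19) were lower as well. Without BALB/c 1, BB031773, Slc6a19 and Gbp6 had adjusted p of 0.0548, 0.0706 and 0.105, and Gbp6 had 0.111 without BALB/c 2. Fkbp5, a chaperone partner of the glucocorticoid receptor, had 53.4 and 45.3 CPM in BALB/c and 121 and 121 CPM in B6 (-1.31, SE 0.27, adjusted p = 0.0366), and was not called without BALB/c 1 (0.238) or BALB/c 2 (0.403).

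A few genes were set by B6 2. Filip1l had 5.93 and 0 CPM in BALB/c, against 21.0 CPM in B6 1 and 376 CPM in B6 2 (log2 change -6.34, adjusted p = 0.046). Slc15a2 had 0 UMIs in BALB/c, against 23.3 CPM in B6 1 and 160 CPM in B6 2, and Nrg2 had 0 UMIs, against 28.0 and 76.7 CPM (at least 33.0-fold and 17.4-fold lower in BALB/c). These 3 were too low to be tested without B6 2, and without BALB/c 1 or BALB/c 2 their adjusted p ran from 0.105 to 0.461. B6 2 is the library whose header names Cell Ranger 7.1.0, and the part of that version in these values was not tested.

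Aqp11 belongs to the gate, so its strain difference was tested on cells gated without it, an alternative chosen after seeing the data. It had 127 and 115 CPM in BALB/c and 961 and 702 CPM in B6, means of 121 ± 8.58 CPM in BALB/c against 831 ± 183 CPM in B6 (SD, n = 2 each), with a log2 change of -2.78 (SE 0.26, edgeR adjusted p = 5.99e-05 over 6852 genes). The strains did not overlap. Treated in the same way, Rag1 changed by -0.70 (adjusted p = 0.274), Dntt by -0.61 (0.339) and Arpp21 by -0.81 (0.212); all 3 were lower in both BALB/c libraries and none was called. In other cells Aqp11 had 1.74 and 3.66 CPM in BALB/c and 18.6 and 12.6 CPM in B6 (-2.52).

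Of the 99 calls, 6 were TCR segments, 5 H2 genes, 14 predicted genes, 1 sex-linked and 1 a gene of the gate. In 13 the count was 0 in both BALB/c libraries and in 2 it was 0 in both B6 libraries. The build named for both strains, mm10, is the C57BL/6J sequence. The part of read mapping in these zeros, in the fold limits and in the other calls was not tested. A called gene within 500 kb was found for 31 of 99 called genes (31.3%), against 504 of 6918 tested genes with a position (7.29%). The 31 include the 5 H2 genes on chromosome 17 and Trav segments on chromosome 14, related genes that lie near each other. Other examples are Epsti1 with Dnajc15 on chromosome 14, and Ddr1 in the H2 region of chromosome 17. Rps18 (-2.80) has near-identical copies that may divide its reads, and its change is uncertain.

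The strain change of DP-like cells was then compared with that of the other cells in a joint fit of 8 sums with the library as a block. The difference was called for 310 of 12917 genes (2.4%), 142 higher (1.1%) and 168 lower (1.3%) in DP-like cells than in other cells. The strain change within other cells was called for 967 of 12821 genes (7.54%), 3.78% higher and 3.76% lower. That count moved with single libraries more than the count in DP-like cells did, and calls in other cells rested on both BALB/c libraries. Without B6 1, 78 higher and 126 lower differences were called, without B6 2 38 and 38, without BALB/c 1 80 and 130, and without BALB/c 2 156 and 123. Each sum of other cells runs over every kept cell outside the gate, of all iNKT subsets. The part of a differing mix of these cells in the strain changes was not tested. In what follows CPM values are scaled over the 8 sums.

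Adgre5 (CD97, an adhesion receptor) had 159 and 151 CPM in BALB/c and 113 and 110 CPM in B6 DP-like cells, but 56.6 and 83.3 CPM in BALB/c and 244 and 246 CPM in B6 other cells. The strain change was 0.47 in DP-like cells and -1.84 in other cells, a difference of 2.28 (SE 0.23, adjusted p = 2.29e-19). Efhd2, a calcium-binding protein gene, had 79.6 and 97.1 CPM in BALB/c and 62.1 and 51.6 CPM in B6 DP-like cells, against 89.6 and 103 CPM in BALB/c as well as 318 and 273 CPM in B6 other cells (difference 2.26, SE 0.27, adjusted p = 5.70e-14). Both genes were thus lower in BALB/c in other cells and were not called between strains in DP-like cells.

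Emb and Slamf6 turned round between the sets. Emb (embigin) had 60.9 and 92.3 CPM in BALB/c and 216 and 175 CPM in B6 DP-like cells, against 150 and 115 CPM in BALB/c and 64.3 and 44.5 CPM in B6 other cells (difference -2.60, SE 0.23, adjusted p = 1.41e-24). The SLAM receptor gene Slamf6, which takes part in iNKT selection, had 65.5 and 68.4 CPM in BALB/c and 128 and 118 CPM in B6 DP-like cells, against 160 and 155 CPM in BALB/c and 59.8 and 71.8 CPM in B6 other cells (-2.10, SE 0.25, adjusted p = 8.23e-14). The strain change of Emb was 1.27 in other cells (edgeR adjusted p = 0.0499, close to the threshold) and -1.32 in DP-like cells. The strain change of Slamf6 was 1.23 in other cells (adjusted p = 0.0246) and -0.87 in DP-like cells, where it was not called (0.140). For both genes BALB/c lay above B6 in every library of the other cells and below it in every library of the DP-like cells.

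For Nsg2, Ly6d and Epsti1 the strain change was more negative in DP-like than in other cells. Nsg2 differed by -2.80 (SE 0.29, adjusted p = 2.22e-18), with strain changes of -4.29 in DP-like and -1.57 in other cells, and Epsti1 by -3.31 (SE 0.38, adjusted p = 1.09e-14), with -4.50 and -1.23. Ly6d, a surface marker of early lymphoid cells, had 74.9 and 210 CPM in BALB/c and 993 and 636 CPM in B6 DP-like cells, against 7.21 and 27.5 CPM in BALB/c and 40.0 and 12.5 CPM in B6 other cells (-2.09, SE 0.22, adjusted p = 7.43e-18). Its strain changes were -2.47 in DP-like and -0.60 in other cells, where the strains overlapped and it was not called (adjusted p = 0.665). Ddr1, which was called in DP-like cells, did not pass in other cells (-0.23), and the difference was 4.55. Itga6 (1.43) and Fkbp5 (-1.34) also differed, and Ctsl (0.75, adjusted p = 0.0654) and Hsph1 (0.01) did not pass.

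Ly6c2, Cd74 and Tyrobp were called too, at 4.96, 4.23 and 12.9, but rested on the single BALB/c 1 cell described above. That cell held 33 of 33 Ly6c2 UMIs, 98 of 99 Cd74 UMIs and 47 of 47 Tyrobp UMIs of the BALB/c 1 DP-like cells. With members over 8000 UMIs left out, the values were -7.23, 0.38 and 8.06 with adjusted p of 0.689, 1 and 0.543. Tyrobp had 0 UMIs in B6 DP-like cells, so its fitted value is no bound.

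**Figure D5:**
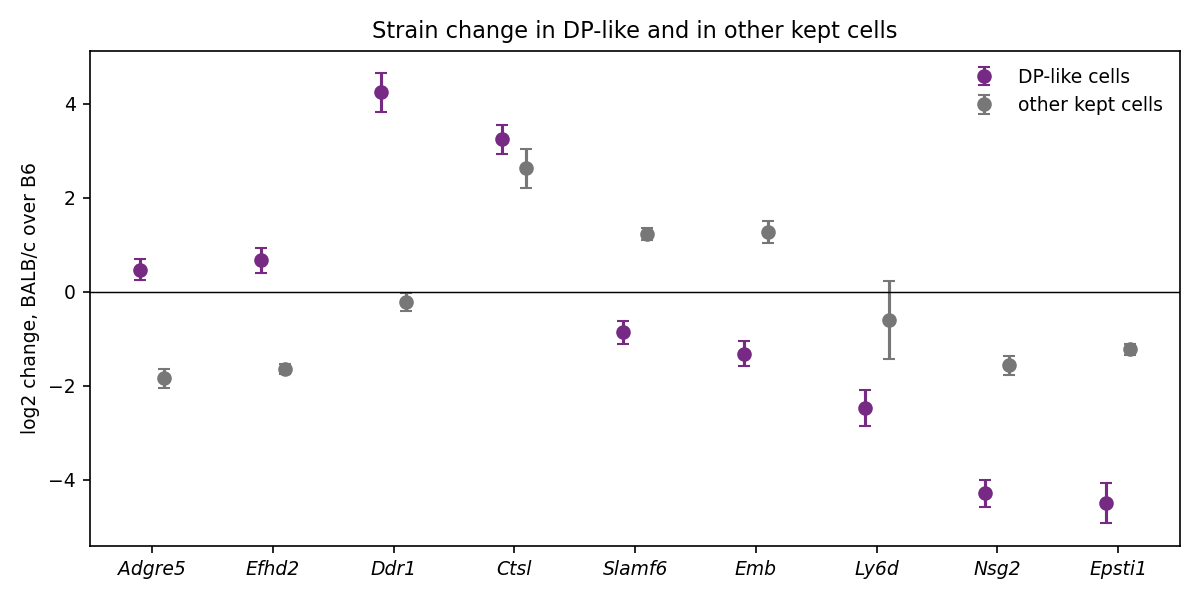
Log2 change, BALB/c over B6, with SE bars, in DP-like cells and in other cells for genes whose change differed between the sets, and for Ctsl. Emb and Slamf6 lie on opposite sides of 0 in the sets, Ddr1 was called higher in DP-like cells and was not called in other cells, and Nsg2 and Epsti1 are lower in both sets and lower still in DP-like cells.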

How the data were processed

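Thymic iNKT cells, sorted live, were profiled with a 10x 5' kit, per the labels' protocols. For each of 4 libraries the authors deposited UMI counts per gene and barcode, whole numbers that are not normalized. The submitters' processing notes name version 7.1.0 of Cell Ranger and the build mm10. Per the file headers, B6 2 came from 7.1.0 and the other libraries from 6.0.0. How intron reads were treated is not stated in these sources.

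Cells were filtered and gated as stated in the results. Doublets were not removed; Scrublet in scanpy 1.11.5 ranked barcodes, and the top 0.8% per 1000 barcodes were left out in an alternative. Raw counts were summed per library over DP-like and over other cells and tested with edgeR 4.0.16 in R 4.3.3 (TMM, filterByExpr, glmQLFit, glmQLFTest, strain only; the joint fit had library as a block), with p-values adjusted by Benjamini-Hochberg across every gene tested. SE is the absolute log2 change divided by the square root of F. Shares have exact binomial intervals and exact permutation tests; intervals and limits cover counting error only. Of 32285 genes, 32158 had a position in GENCODE vM21 (GRCm38). On simulated counts the scripts were tested before use.

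The members and gene lists were chosen with earlier results of these data known. Named genes are the 10 largest called changes per direction with a mean level of 20 CPM or more and no overlap of strains, up to 3 members of lowest p per list (given where the text turns on them) and a fixed set; for the joint fit the 5 of lowest p in each direction, and for DP-like against other cells list members and the 15 largest ratios each way. TCR, immunoglobulin, H2, sex-linked, predicted and gate genes were skipped except where stated. Ddr1, Itga6, Fkbp5, Ctsl and Hsph1 in the joint fit and Rps18 were added after their values were seen. A few genes are not reported here.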

Additional observations from a re-analysis of the deposited data

Results flagged for a closer look

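For 310 genes the strain change differed between DP-like and other cells by the test of the difference, and the 5 of lowest p in each direction are given here. Higher in DP-like cells were Ly6c2 (4.96), Adgre5 (2.28), Efhd2 (2.26), Cd74 (4.23) and Tyrobp (12.9). Adgre5 and Efhd2 were called whichever library was left out. Ly6c2, Cd74 and Tyrobp had adjusted p of 0.933, 0.954 and 0.584 without BALB/c 1, the library of the 1 cell that held nearly all their UMIs, and Cd74 also had 1 without B6 1.

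Lower in DP-like cells were Emb (-2.60), Nsg2 (-2.80), Ly6d (-2.09), Epsti1 (-3.31) and Slamf6 (-2.10). These 5 were called whichever library was left out and with DESeq2. With 2 libraries per strain no library was examined as an outlier within its group.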

How the results depend on the processing

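The strain difference in the share of DP-like cells kept its sign under every alternative run, at 1.34 to 5.33 points without single libraries and 1.85 points after thinning to 2000 UMIs. The strains overlapped, with BALB/c 1 below B6 1, in that setting (4.18% and 5.58%), after thinning to 1000 UMIs (6.43% and 6.81%), with at most 5% mitochondrial UMIs (6.93% and 7.25%), with 2 immaturity UMIs required (6.698% and 6.728%) and without cells holding Zbtb16, Cd44 or Klrb1c UMIs (6.59% and 6.64%). The Trav11 difference ran from -0.345 to 0 and the Cd4 difference from -5.09 to 1.29 in the same way; after thinning to 2000 and 1000 UMIs the Cd4 difference was 3.85 and 3.39. The Trbv13 difference ran from 5.30 to 14.2.

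Genes called higher and lower between strains (32 and 67) became 20 and 31 with DESeq2, 114 and 243 with no filter on low counts, and 5 to 132 and 13 to 296 without single libraries; 51 were higher without cells holding Zbtb16, Cd44 or Klrb1c UMIs, an alternative added after seeing the data. With a replicate block they were 65 and 123. Libraries of the same number did not deviate together (correlation -0.113 in DP-like and -0.266 in other cells). With 2 libraries per strain the deviations within a strain mirror each other, so this cannot tell whether the numbers mark a batch. A crossed pairing gave 122 and 196. The joint fit (142 and 168) gave 46 and 54 with DESeq2, and 38 to 156 and 38 to 130 without single libraries. The cause of these changes was not tested.

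All 20 largest changes kept their sign wherever tested. They stayed called with no TMM factors, with no filter and with the block, and 15 with DESeq2; 7 were called without BALB/c 1, 12 without BALB/c 2, 20 without B6 1 and 16 of 17 tested without B6 2. Over 50 named genes and 878 values, 780 kept direction and call, 53 newly passed, 36 no longer passed and 9 reversed. Reversed without single libraries were Bcl2l1 (-0.375 to 0.146), Zbtb16 (-1.40 to 6.53), Ccr9 (-0.214 to 0.388) and Themis (-1.20 to 0.0232), turned by leaving out B6 2, Id3 (-0.255 to 0.754) and Cd24a (-0.0791 to 0.562), turned by BALB/c 2, and Cd69 (-1.42 to 0.327), turned by BALB/c 1. Cd69 was also 0.306 with Cd4 required and 0.0813 without cells holding Zbtb16, Cd44 or Klrb1c. In the joint fit Ly6c2 ran from -7.63 to 6.73 and Cd74 from -1.25 to 13.6, both lowest without BALB/c 1. Ly6c2 was -7.21 with 2 immaturity UMIs required, -7.23 without cells over 8000 UMIs and -7.18 with Dntt left out of the gate, and Cd74 was -0.583 in the first and -0.902 in the last of these; each of these leaves out the BALB/c 1 cell described above. The depth of 339187 UMIs in the shallowest sum limits calls to genes above a few UMIs per library.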
